A study of Mus musculus with 10 samples.

Results

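Imprinted genes are expressed mainly or only from one parental copy, and the promoters described here belong to those whose maternal copy is methylated in the egg. They were defined as 10 windows on the mouse build mm9, around the promoters of Nnat, Peg10, Mest, Nap1l5, Peg3, Snrpn, Plagl1, Grb10, Zrsr1 and Impact, and every non-control probe whose position fell inside a window was taken. The windows held 63 of the 88737 non-control probes of the array, in 9 of the 10 windows and with 3 to 10 probes each. The window of Snrpn, a small nuclear ribonucleoprotein gene of the Prader-Willi region, held 0 probes, and the nearest probe lay 659 kb away, so Snrpn was not measured. Each of the 9 covered windows was treated as 1 region and set among 13835 regions of the array, most of which are runs of at least 3 neighbouring probes.

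The study measured DNA methylation in the left hemibrain of male C57BL/6j mice, an inbred strain, by methylated DNA immunoprecipitation on a microarray of CpG islands. From 3 weeks of age and for 24 weeks, the mice ate 1 of 3 diets that were matched in calories and set apart by their n-3:n-6 ratio of polyunsaturated fatty acids. An enriched diet called ERD had a ratio of 7:1 and is represented by 4 arrays, a balanced diet called BLD one of 1:1 with 3 arrays, and the standard laboratory chow called STD one of 1:6 with 3 arrays. The labels do not tie each array to an animal of its own. The p-values therefore cover the spread among these arrays, which may be technical, and every title ends in the word CONTROL whatever the diet.

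At a maternally methylated imprinted promoter, methyl groups set in the oocyte survive the reprogramming of the early embryo, partly through the zinc finger protein ZFP57, and remain on the maternal copy in all body tissues. The paternal copy stays unmethylated, and it is usually the expressed one. The assay pulls down fragments that carry 5-methylcytosine with an antibody, and it does not separate the parental copies. The value of a probe is the log2 ratio of immunoprecipitated DNA (Cy5) over input DNA (Cy3), centred on the median of all probes of its array, so 0 is the typical probe of an array and not an absence of methylation. Dyes had the same orientation on all arrays, so a dye effect on single probes remains in the levels. In this bulk tissue a larger share of methylated cells and more methylation per cell cannot be told apart.

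The antibody binds 5-methylcytosine, and the number of CpG dinucleotides in a promoter bears on the signal it can give. RefSeq promoters of the build GRCm38.p6, which run 250 bases before to 50 bases after a gene start, were at hand for 8 of the 10 genes, and for 5 of these there was 1 entry only. The number of CpG in these 300 bases was 26 for Plagl1, 17 for Nnat, 17 for Nap1l5, 13 for Peg3 and 10 for Zrsr1, against a median of 7 over 32851 promoters. Of these 5, the most and the least CpG-rich are shown, with that of Nap1l5, in which the hexamer TGCCGC occurs most often. CpG dinucleotides are in capitals and each sequence is given on the strand of its gene. The Plagl1 sequence is chr10:13090582-13090881 (plus strand), the Nap1l5 sequence chr6:58907077-58907376 (minus strand) and the Zrsr1 sequence chr11:22971755-22972054 (plus strand).
Plagl1: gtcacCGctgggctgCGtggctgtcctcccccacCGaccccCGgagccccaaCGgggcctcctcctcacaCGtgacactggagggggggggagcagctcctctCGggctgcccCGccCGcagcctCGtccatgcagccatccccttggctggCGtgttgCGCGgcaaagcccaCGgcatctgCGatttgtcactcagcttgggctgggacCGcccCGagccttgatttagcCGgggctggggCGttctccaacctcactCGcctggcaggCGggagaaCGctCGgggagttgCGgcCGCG
Nap1l5: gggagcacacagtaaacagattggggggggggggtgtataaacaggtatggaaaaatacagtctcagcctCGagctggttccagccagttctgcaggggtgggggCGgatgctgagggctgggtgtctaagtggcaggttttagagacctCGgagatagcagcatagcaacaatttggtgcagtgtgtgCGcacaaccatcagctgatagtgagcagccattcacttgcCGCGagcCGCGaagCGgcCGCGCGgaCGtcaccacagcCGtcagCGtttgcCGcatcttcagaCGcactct
Zrsr1: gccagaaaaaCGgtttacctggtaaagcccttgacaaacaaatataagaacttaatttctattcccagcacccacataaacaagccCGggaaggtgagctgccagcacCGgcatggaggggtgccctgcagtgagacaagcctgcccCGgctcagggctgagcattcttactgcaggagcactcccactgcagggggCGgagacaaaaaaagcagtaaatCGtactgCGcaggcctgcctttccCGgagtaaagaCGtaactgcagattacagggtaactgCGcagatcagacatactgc
In these promoters the CpG of Nap1l5 gathered near the gene start, whereas those of Plagl1 ran through the whole stretch. The hexamer TGCCGC, which ZFP57 binds when it is methylated, was searched on both strands. It occurred 2 times in Nap1l5, 1 time in Plagl1, 1 time in Nnat and 0 times in Peg3 and Zrsr1. It was held by 11.6% of all promoters, and of those with 15 or more CpG 25.1% did. Such a match is a description of these letters. The probes are on another build, so their places in these sequences were not determined.

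Each array held 88737 non-control probes, of which 76.4% to 94.7% had both channels well above background. The interquartile range of the log2 ratio, a measure of how far an array spreads its probes, was 0.61 to 0.79 on ERD arrays, 0.38 to 0.74 on BLD arrays and 0.38 to 0.53 on STD arrays. The arrays lay on 5 slides, and only BLD replicate 3 and STD replicate 1 shared a slide between diets, so diet and slide cannot be told apart for ERD against STD or ERD against BLD. Of the 630 spots in the windows 82.9% were well above background, against 86.7% over all probes, 0 were saturated and 2 were left out as outlier-flagged. On 35 of the 63 window probes both channels were well above background on all 10 arrays.

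All 9 covered windows lay above the array median in signal. The level of a window, the mean of its 3 diet means, ran between 0.29 at Zrsr1 and 0.54 at Grb10 with a median of 0.39, against a median of -0.04 over all regions. In limma, with the p-values adjusted over all regions, 9 of 9 windows were higher than the array median at an adjusted p under 0.05, where 20.6% of all regions were. The window levels stood at the 89.9th to 96.1st percentile of all regions, and 8 of 9 lay in the highest 10%, which began at 0.30, with Zrsr1 just outside. They stood in the shoulder of the distribution and not at its far end, since the other regions of that highest 10% had a median of 0.49. With normexp background correction of the raw intensities, 0 of 13835 regions passed in limma, and 6 of 9 windows had an unadjusted p under 0.05 above the median, against 9.49% of regions, while Impact turned to -0.02.

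**Figure D1:**
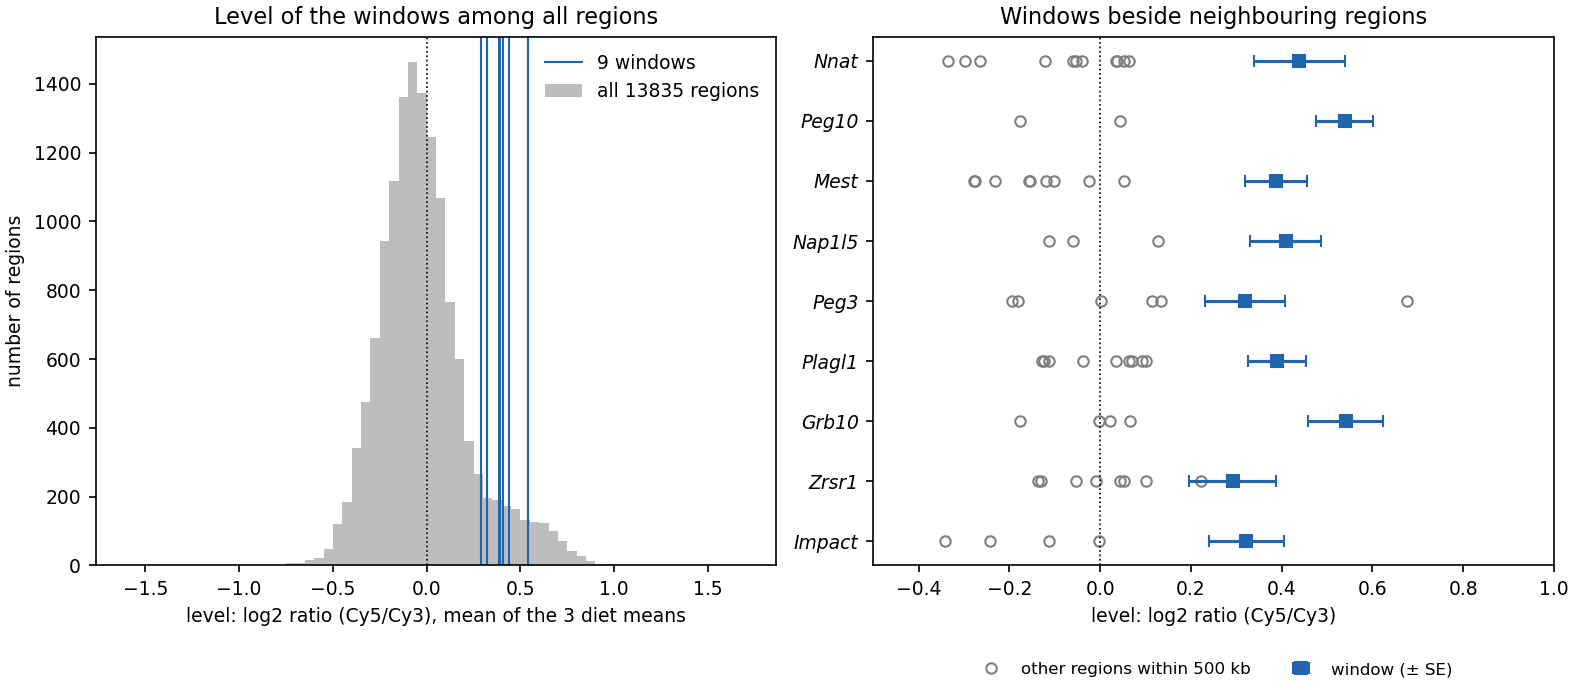
Left, histogram of the level (log2 ratio of Cy5 over Cy3, mean of the 3 diet means) of all 13835 regions with the 9 windows as vertical lines, which lie between 0.29 and 0.54. Right, level of each window (square, ± SE) beside those of the other regions within 500 kb (circles). Of these 56 neighbours, 55 lie lower than their window, and the exception near Peg3 is at 0.68.

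The islands around the windows mostly lay lower. Most regions anywhere on the array lay lower than the windows, which stood at the 89.9th to 96.1st percentile, and the median of all regions was -0.04. Within 500 kb of the 9 windows the array held 56 other regions with a median level of -0.05, and 55 of them were lower than their window. The exception was a region 247 kb from the Peg3 window (chr7:6929862-6930231) at 0.68. A region 9.7 kb from the Zrsr1 window (chr11:22881881-22882487) was lower but close, at 0.22 against 0.29 ± 0.10 (SE) at Zrsr1. Measured against the median of its own neighbours in place of the array median, 8 of the 8 windows with at least 3 neighbours passed in limma at an adjusted p under 0.05, and 25.2% of regions did. Their levels on that baseline ran between 0.28 at Zrsr1 and 0.58 at Grb10. Peg10 had 2 neighbours, at -0.18 and 0.04, both lower than its level of 0.54.

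Probe length moved with these levels. Over all probes, those of 60 nucleotides had a median level of 0.38 and those of 45 nucleotides of -0.07, and 57.1% of the window probes were 45 nucleotides long, against 73.9% of all probes. When each probe was set against the median of probes of its own length on the same array, 8 of 9 windows remained past the threshold, and Zrsr1 fell to 0.20 (limma adjusted p = 0.0912). The share of all regions higher at that threshold was 20.6% in the main fit and was not counted with this correction.

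Nnat, Nap1l5 and Zrsr1 are short genes that sit inside introns of larger genes. In the order of replicates, Nnat, which encodes the neuronal proteolipid neuronatin (chr2:157385700-157386395, 7 probes), gave 0.10, 1.16, 0.12 and 0.49 on ERD arrays, 0.82, 0.79 and 0.33 on BLD arrays, and 0.07, 0.54 and -0.01 on STD arrays. ERD replicate 2 stood well above the other ERD arrays, 4 arrays, 2 of ERD and 2 of STD, were at 0.12 or lower, and all 3 diets overlapped. Its level was 0.44 ± 0.10 (SE; limma adjusted p = 0.00315), at the 93.9th percentile of regions. Its spread within diets, a pooled SD of 0.39, was the widest of the windows, at the 96.0th percentile of all regions. Nap1l5, a nucleosome assembly protein retrogene (chr6:58856617-58857246, 5 probes), gave 0.37, 1.18, 0.35 and 0.46 on ERD arrays, 0.43, 0.40 and 0.29 on BLD arrays, and 0.05, 0.54 and 0.20 on STD arrays. Every array was above its median, the BLD arrays lay close together (0.37 ± 0.07, SD, n = 3), and the level was 0.41 ± 0.08 (SE; limma adjusted p = 0.0011). Zrsr1, a retrogene related to the splicing factor U2AF (chr11:22872000-22873052, 9 probes), gave 0.31, 1.16, 0.06 and 0.45 on ERD arrays, 0.54, 0.58 and 0.05 on BLD arrays, and -0.19, 0.23 and -0.07 on STD arrays. In STD it averaged -0.0097 ± 0.22 (SD, n = 3) and lay near the array median, whereas ERD averaged 0.49 ± 0.47 (SD, n = 4) and BLD 0.39 ± 0.30 (SD, n = 3). Its level of 0.29 ± 0.10 (SE; limma adjusted p = 0.0215) was the lowest of the 9, and without BLD replicate 1, BLD replicate 2 or STD replicate 2 its adjusted p was 0.0629, 0.0637 and 0.0663.

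Peg3 and Plagl1 encode zinc finger proteins. The window of Peg3 (chr7:6682111-6683212, 9 probes) gave 0.26, 1.14, 0.24 and 0.31 on ERD arrays, 0.64, 0.52 and 0.18 on BLD arrays, and -0.07, 0.29 and -0.14 on STD arrays. Again ERD replicate 2 was alone at the top, and 2 STD arrays were the only ones below 0. The level of Peg3 was 0.32 ± 0.09 (SE; limma adjusted p = 0.00917), and its ERD arrays averaged 0.49 ± 0.43 (SD, n = 4), its BLD arrays 0.45 ± 0.24 (SD, n = 3) and its STD arrays 0.03 ± 0.23 (SD, n = 3). Plagl1, also known as Zac1, is a transcription factor of a network of imprinted growth genes, and its window (chr10:12810275-12811158, 7 probes) gave 0.42, 0.87, 0.49 and 0.59 on ERD arrays, 0.49, 0.42 and 0.28 on BLD arrays, and 0.20, 0.51 and -0.16 on STD arrays. A single STD array was below 0 and the others ran between 0.20 and 0.87. The ERD spread at Plagl1 was the narrowest of the windows (0.59 ± 0.20, SD, n = 4), and its level was 0.39 ± 0.06 (SE; limma adjusted p = 0.000448). Its pooled SD within diets, 0.23, was still at the 79.9th percentile of all regions.

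Peg10 and Mest lie on chromosome 6, as does Nap1l5. Peg10, a gene derived from a retrotransposon that the mouse placenta needs (chr6:4697308-4698444, 7 probes), gave 0.51, 1.05, 0.51 and 0.62 on ERD arrays, 0.67, 0.84 and 0.33 on BLD arrays, and 0.38, 0.38 and 0.23 on STD arrays. All 10 arrays were above their median, and every ERD array was above every STD array, which held in 7.24% of all regions. With 0.54 ± 0.06 (SE; limma adjusted p = 8.34e-05) it had the lowest p of the levels, and its STD arrays spread by 0.08 only (SD, n = 3). Mest, which encodes an enzyme of the hydrolase fold (chr6:30688012-30688541, 6 probes), gave 0.36, 0.86, 0.25 and 0.63 on ERD arrays, 0.66, 0.30 and 0.19 on BLD arrays, and 0.22, 0.47 and 0.08 on STD arrays. It too was above the median on all 10 arrays, with overlapping diets and a level of 0.39 ± 0.07 (SE; limma adjusted p = 0.00066).

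Grb10 and Impact encode proteins that act in signalling. Grb10 is an adaptor that restrains insulin and growth factor receptors, and in neurons its paternal copy is expressed while most other tissues use the maternal one. Its window (chr11:11925467-11926345, 10 probes) gave 0.37, 1.03, 0.13 and 0.63 on ERD arrays, 0.73, 0.66 and 0.32 on BLD arrays, and 0.30, 0.81 and 0.43 on STD arrays. The diet means were close, with ERD arrays at 0.54 ± 0.39 (SD, n = 4), BLD arrays at 0.57 ± 0.22 (SD, n = 3) and STD arrays at 0.52 ± 0.26 (SD, n = 3), and the level of 0.54 ± 0.08 (SE; limma adjusted p = 0.000307) was the highest of the windows. Impact is an inhibitor of the stress kinase GCN2 that is abundant in neurons, and its window held 3 probes (chr18:13131830-13132313). It gave 0.42, 0.94, -0.06 and 0.50 on ERD arrays, 0.10, 0.34 and 0.13 on BLD arrays, and 0.24, 0.64 and 0.12 on STD arrays. Here BLD was the lowest diet, with 0.19 ± 0.13 (SD, n = 3), the only negative value came from an ERD array, and the level was 0.32 ± 0.08 (SE; limma adjusted p = 0.00626).

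**Figure D2:**
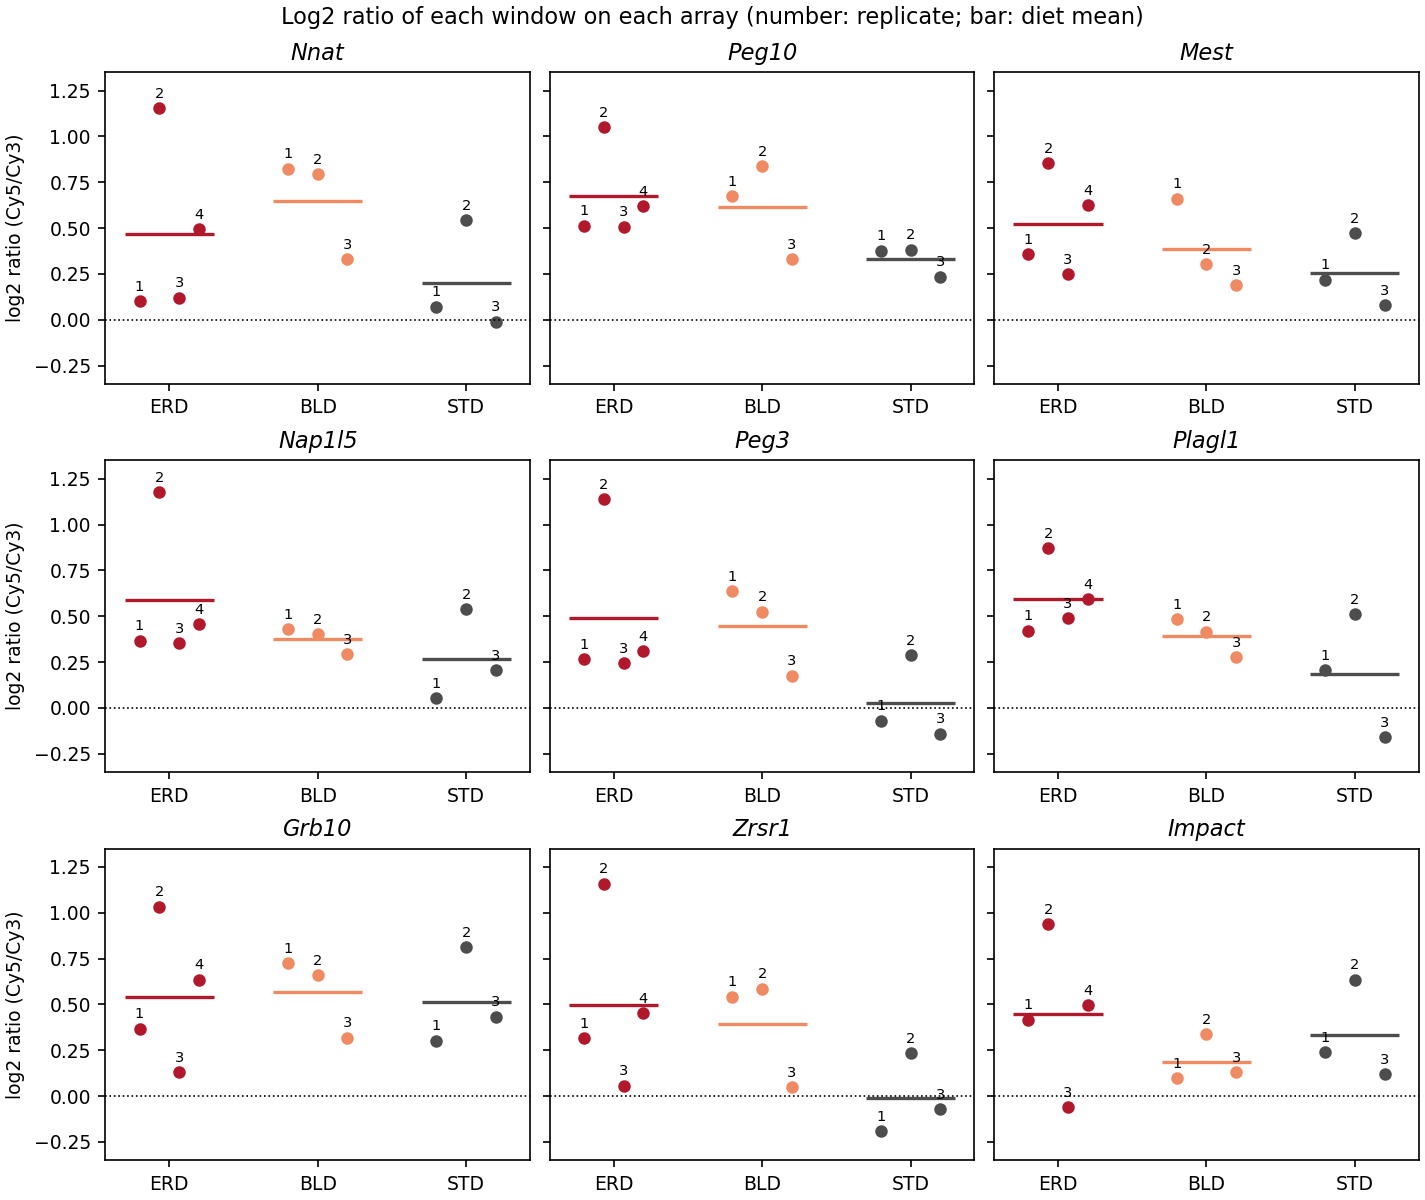
Log2 ratio of Cy5 over Cy3 of each window on every array, with the replicate number above each point and a bar at the diet mean, for ERD (4 arrays), BLD (3) and STD (3). ERD replicate 2 is the highest array in all 9 windows, between 0.86 at Mest and 1.18 at Nap1l5. Peg10 is the 1 window of 9 in which every ERD array lies above every STD array, which holds in 7.24% of all regions.

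Of the 9 windows, 4 were above the array median on all 10 arrays, namely Peg10, Mest, Nap1l5 and Grb10, against 8.27% of all regions. Nnat, Plagl1 and Impact were above it on 9 arrays, Peg3 and Zrsr1 on 8. On the array scale of ranks, the median percentile of the windows among all regions lay between 85.7 and 93.6 on ERD arrays, between 90.6 and 93.0 on BLD arrays, and between 77.2 and 95.2 on STD arrays. The lowest and the highest of these belonged to STD replicates 3 and 2, so the ranks of the windows overlapped between the diets.

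Within the windows the signal was spread over most probes. Of the 63 probes 61 had a level above 0, against 49.3% of all probes, and 43 were higher than the array median in limma at an adjusted p under 0.05, against 19.6% of all probes. Grb10 contributed 9 of its 10 probes to these 43, and Zrsr1 3 of its 9. The probe of highest level was the third of Grb10 (chr11:11925663-11925707), which gave 0.59, 1.77, 0.08 and 0.90 on ERD arrays, 0.99, 0.87 and 0.83 on BLD arrays, and 1.02, 1.76 and 0.90 on STD arrays. It was above the median on every array, and ERD replicate 3 was the one array near 0. The lowest was the sixth probe of Peg3 (chr7:6682893-6682938), with a level of -0.16, which was well above background on 6 arrays. The other negative probe was the eighth of Zrsr1 (chr11:22872866-22872910), at -0.05 and well above background on all 10 arrays, with 0.78, 1.39, -0.34 and 0.18 on ERD arrays, -0.09, 0.43 and -0.58 on BLD arrays, and -0.62, -0.35 and -0.79 on STD arrays. All 3 STD arrays were below 0 at this probe, and 1 ERD array and 2 BLD arrays were as well.

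Not every probe contributed a firm signal. In the windows of Nnat and Peg10, 2 probes each were well above background on all arrays, and on the seventh probe of Nnat and the first of Grb10, both 60 nucleotides long, this held on 0 arrays. Restricted to probes above background on all arrays, with at least 3 of them per window, 7 windows were left, and 7 of 7 passed the adjusted threshold for the level in limma. In the main fit 20.6% of all regions were higher at that threshold, and the share under this restriction was not counted.

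**Figure D3:**
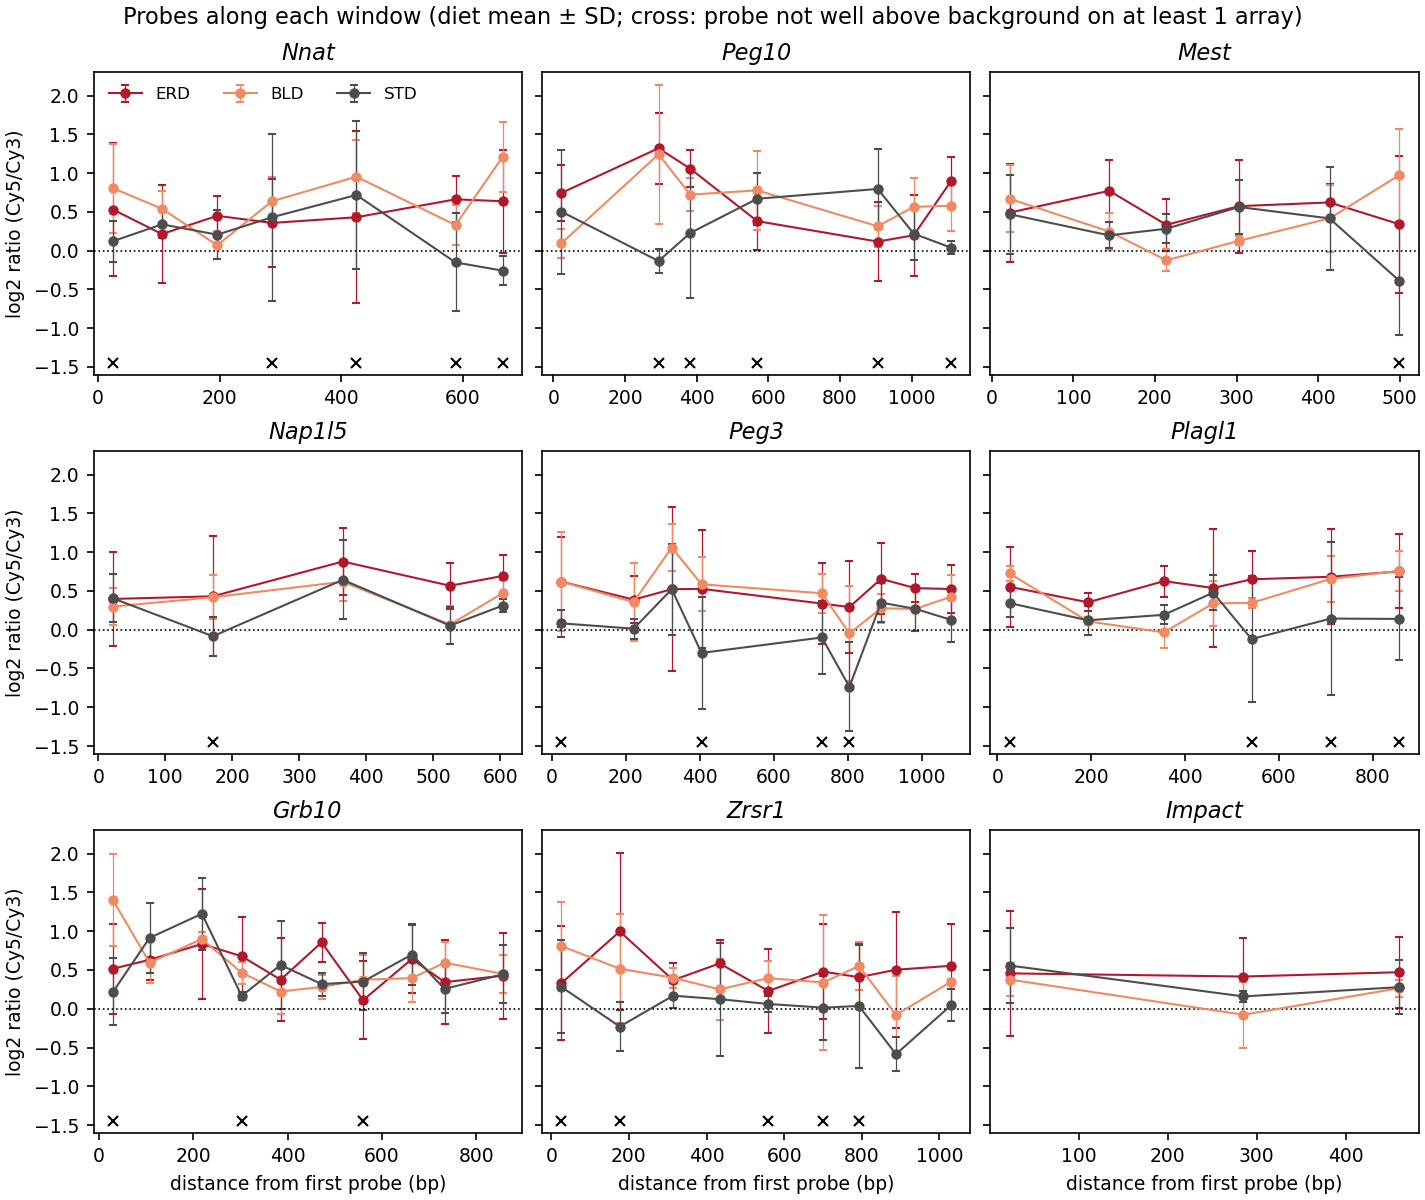
Log2 ratio of Cy5 over Cy3 of every probe along each window (mean ± SD of the arrays of a diet) by distance from the first probe of the window in bp, for ERD, BLD and STD. A cross marks a probe that was not well above background on at least 1 array, which leaves 35 of 63 without one. Most means lie above 0, and the lowest lie in STD at Peg3 and Zrsr1.

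Between ERD and STD, no window passed the adjusted threshold in limma, and 0% of all regions did. All 9 windows were higher in ERD in their means, against 50.6% of regions, with a median difference of 0.32 against 0.0033 over all regions. This direction did not hold under every background correction. With normexp 5 of 9 were higher in ERD, against 64.5% of regions, with a median of 0.02 against 0.06. At an unadjusted p under 0.05, 4 of 9 were higher, namely Peg10, Peg3, Plagl1 and Zrsr1, against 7.68% of regions higher at that p. The difference was 0.34 ± 0.15 (SE; limma adjusted p = 0.303) at Peg10, 0.46 ± 0.21 (SE; adjusted p = 0.314) at Peg3, 0.41 ± 0.15 (SE; adjusted p = 0.243) at Plagl1 and 0.50 ± 0.23 (SE; adjusted p = 0.313) at Zrsr1. At the other end Grb10 differed by 0.03 ± 0.20 (SE; limma adjusted p = 0.958) and Impact by 0.12 ± 0.20 (SE). Nnat, Mest and Nap1l5 lay between, at 0.27 ± 0.24, 0.27 ± 0.16 and 0.32 ± 0.19 (SE). With normexp, 0 of 9 windows had an unadjusted p under 0.05, Peg10 turned to -0.21, Nnat to -0.15, Grb10 to -0.03 and Zrsr1 to -0.0068, and Peg3 and Plagl1 were at 0.02 and 0.07. The arrays of ERD and STD did not overlap in 1 of 9 windows, Peg10, against 7.24% of regions with all ERD arrays higher.

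These differences were of the size found in other strongly enriched regions. The 1376 other regions in the highest 10% by level had a median difference between ERD and STD of 0.37, and 95.8% of them were higher in ERD. Since that ranking used the arrays compared here, it is a description only. The interquartile range was also wider on ERD arrays than on STD arrays. With all arrays scaled to one interquartile range, 2 of 9 windows, Peg3 at 0.41 and Zrsr1 at 0.45, were left at an unadjusted p under 0.05. Of all regions, 13.5% had such a p in either direction with scaling, against 15.7% in the main fit. Grb10 turned to -0.19 and Impact to -0.02. With the slide as a random block 1 of 9 windows, Plagl1, was left at that p. The share of all regions with that block was slightly under the 15.7% of the main fit, and 1 of 9 was not above it.

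Single arrays decided these unadjusted counts. Without ERD replicate 2, 0 of 9 windows were left and Grb10 and Impact turned to -0.14 and -0.05. Without STD replicate 3 the count was 0 as well, without BLD replicate 1 or STD replicate 1 it was 1, and without BLD replicate 2 or ERD replicate 4 it was 2. Leaving out 1 array, 8.62% to 16.2% of all regions had an unadjusted p under 0.05 in either direction. That share was 14.3% without ERD replicate 2 and 8.62% without STD replicate 3, against 15.7% with all arrays. Without ERD replicate 2 the differences of Peg10, Peg3, Plagl1 and Zrsr1 were 0.22, 0.25, 0.32 and 0.28, and those of Nnat, Mest and Nap1l5 were 0.04, 0.15 and 0.13.

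Among single probes, 13 of 63 were higher in ERD than in STD at an unadjusted p under 0.05 and 1 was lower, against 6.55% and 8.49% of all probes, and 0 passed after adjustment. The last probe of Peg10 (chr6:4698392-4698444) gave 0.70, 1.32, 0.62 and 0.94 on ERD arrays, 0.46, 0.95 and 0.33 on BLD arrays, and -0.03, 0.14 and 0.01 on STD arrays. Every STD array was below every ERD and BLD array there, with a difference between ERD and STD of 0.86 (limma adjusted p = 0.153, over all probes), and the probe was well above background on 8 arrays. It was named for its low p, which favours such a separation, and the share of all probes with one was not counted. The second probe of Peg10 had the lowest p of the members and the same adjusted p, but was well above background on 1 array. Next came the eighth probe of Zrsr1, with 1.09 (limma adjusted p = 0.216). The 1 lower probe was the fifth of Peg10, with -0.68 (limma adjusted p = 0.323), so both directions occurred inside 1 window.

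Between BLD and STD, 0 of 9 windows passed the adjusted threshold in limma and 0% of all regions did. At an unadjusted p under 0.05 there were also 0 of 9, against 11.2% of regions in either direction. The differences were positive in 8 of 9 windows, against 56.7% of regions, with a median of 0.21 against 0.03. Of the 1376 other regions in the highest 10% by level, 92.1% were positive, with a median of 0.29, and 24.2% with normexp. All 9 window differences changed sign with normexp, so that 1 of 9 was positive, against 45.9% of regions, with a median of -0.13 against -0.01. The widest were those of Nnat with 0.45 ± 0.26 (SE; limma adjusted p = 0.505), Peg3 with 0.42 ± 0.23 (SE; adjusted p = 0.486) and Zrsr1 with 0.40 ± 0.24 (SE; adjusted p = 0.519). Impact was the exception with -0.14 ± 0.21 (SE; adjusted p = 0.796). With normexp, Nnat was at -0.27, Peg3 at -0.14, Zrsr1 at -0.02 and Impact at 0.03, and Nnat had an unadjusted p under 0.05 (limma adjusted p = 0.869). The unadjusted count rose to 4 of 9 without ERD replicate 2, an array of neither diet that enters through the shared estimate of the spread, to 3 without STD replicate 2 and to 2 without BLD replicate 3. Of all regions, 14.3% had an unadjusted p under 0.05 in either direction without ERD replicate 2. Over all left-out arrays that share ran between 4.44% and 18.7%.

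A pair of arrays of these diets shared a slide. On it, the difference of BLD replicate 3 minus STD replicate 1 was 0.26 at Nnat, 0.25 at Peg3, 0.24 at Zrsr1, 0.24 at Nap1l5, 0.07 at Plagl1 and 0.02 at Grb10, and it was -0.03 at Mest, -0.05 at Peg10 and -0.11 at Impact. This is 1 pair with no test. Of the probes, 5 of 63 were higher in BLD at an unadjusted p under 0.05, against 6.19% of all probes, and the lowest p among them came from the 60-nucleotide probe of Nnat that was well above background on 0 arrays.

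Between ERD and BLD, again 0 of 9 windows passed the adjusted threshold in limma, with 0% of all regions, and 0 of 9 had an unadjusted p under 0.05, against 10.2% of regions. Of the windows, 7 of 9 were higher in ERD, against 43.6% of regions, with a median difference of 0.10 against -0.03. Among the 1376 other regions in the highest 10% by level, 67.2% were higher in ERD, with a median of 0.08. With normexp 9 of 9 windows were higher in ERD, against 78.1% of regions and 96.2% of those 1376. Impact with 0.26 ± 0.20 (SE; limma adjusted p = 0.682), Nap1l5 with 0.21 ± 0.19 (SE; adjusted p = 0.729) and Plagl1 with 0.20 ± 0.15 (SE; adjusted p = 0.683) were the highest, and Nnat with -0.18 ± 0.24 (SE; adjusted p = 0.837) was the lowest. Without ERD replicate 2, or without ERD replicate 3, 1 window of 9 had an unadjusted p under 0.05, and without ERD replicate 2 Peg10, Peg3 and Zrsr1 turned to -0.07, -0.17 and -0.12. Among all regions 12.5% had such a p without ERD replicate 2, and 6.52% to 12.5% over all left-out arrays. The third probe of Plagl1 (chr10:12810608-12810652) gave 0.71, 0.85, 0.55 and 0.39 on ERD arrays, -0.26, 0.08 and 0.08 on BLD arrays, and 0.28, 0.24 and 0.05 on STD arrays. All ERD arrays were above all others, and the difference between ERD and BLD was 0.66 (limma adjusted p = 0.379, over all probes). This probe was named for the lowest p of the window probes in this comparison, which favours such a separation. The share of all probes with one was not counted.

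**Figure D4:**
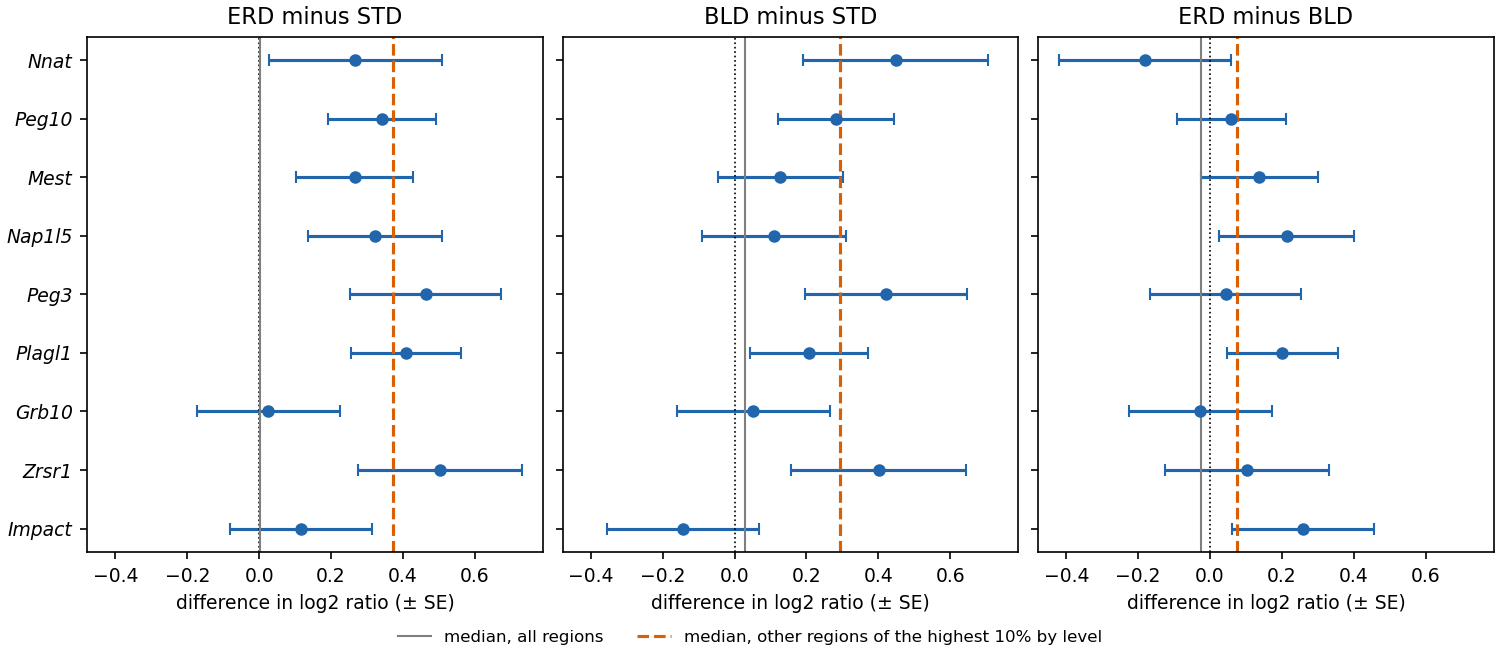
Difference in log2 ratio (± SE) of each window between ERD and STD, BLD and STD, and ERD and BLD, with the median of all regions (grey line) and of the 1376 other regions of the highest 10% by level (dashed line). For ERD minus STD the windows lie between 0.03 at Grb10 and 0.50 at Zrsr1, around the dashed line at 0.37.

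Over the 3 diets in order of their n-3:n-6 ratio, the slope per doubling of the ratio was positive in 9 of 9 windows, against 50% of regions. It ran between 0.0040 at Grb10 and 0.09 at Zrsr1. Of the 1376 other regions in the highest 10% by level, 95.6% had a positive slope. Their median slope was 0.067, against 0.061 for the windows. In limma 0 of 9 slopes passed the adjusted threshold, against 0.0434% of regions, and 3 of 9 had an unadjusted p under 0.05, against 7.09% of regions rising at that p. These were Peg10 with 0.06 ± 0.03 (SE; limma adjusted p = 0.325), Plagl1 with 0.08 ± 0.03 (SE; adjusted p = 0.241) and Zrsr1 with 0.09 ± 0.04 (SE; adjusted p = 0.329). The diet means of Plagl1 were 0.18 in STD, 0.39 in BLD and 0.59 in ERD, those of Zrsr1 -0.0097, 0.39 and 0.49, and those of Peg10 0.33, 0.61 and 0.67. With normexp 5 of 9 slopes were positive, against 65.8% of regions, and 0 had an unadjusted p under 0.05. The share of all regions at that p with normexp is not given here. Peg10 turned to -0.04, Nnat to -0.02, Grb10 to -0.0017 and Zrsr1 to -0.00095. The slopes share arrays with the pairwise comparisons. Without ERD replicate 2 or STD replicate 3 the count was 0, without BLD replicate 3 or STD replicate 1 it was 1, and without ERD replicate 3 it was 5. Leaving out 1 array, 8.46% to 17.0% of all regions had an unadjusted p under 0.05 in either direction.

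The windows moved together from array to array. ERD replicate 2 was the highest array in 9 of 9 windows, against 18.8% of all regions and 79% of the 1385 regions formed by the highest 10% by level and the Zrsr1 window. STD replicate 3 was the lowest in 5 of 9, against 15.3% of all regions and 58.9% of those 1385. The median of the windows per array was 0.37, 1.05, 0.24 and 0.50 in ERD, 0.64, 0.52 and 0.28 in BLD, and 0.20, 0.51 and 0.08 in STD. For the 1376 other regions of the highest 10% it was 0.43, 1.20, 0.39 and 0.62 in ERD, 0.73, 0.67 and 0.35 in BLD, and 0.22, 0.48 and 0.11 in STD. The windows thus took the same order of arrays as other regions of high level in most places, with ERD replicate 2 at the top and STD replicate 3 at the bottom of both. Within diets the windows had a median pooled SD of 0.31, against 0.16 over all regions and 0.34 over the other regions of the highest 10%.

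Between pairs of windows, Pearson's r over the 10 arrays had a median of 0.80 over 36 pairs and ran between 0.57 for Peg10 with Impact and 0.96 for Peg3 with Zrsr1. Without ERD replicate 2 the median was 0.67 with a range of 0.13 to 0.91. Pairs among the other regions of the highest 10% had a median of 0.72, so a high r was common among regions of high level. Over all 13826 other regions, r with the mean of the windows had a median of 0.01. The regions most like the mean of the windows over the 10 arrays were chr7:31140698-31141181 with r = 0.995, chr3:88288420-88289125 with r = 0.991 and chr10:79138046-79138694 with r = 0.990, each of 6 probes and at a level of 0.64, 0.41 and 0.65.

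Other imprinting control regions gave similar levels. In 7 further windows placed, from general knowledge of the mm9 map, at maternally methylated control regions, 7 of 7 were above 0, against 41.1% of all regions, with levels between 0.25 and 0.49 at the 88.0th to 95.1st percentile of regions. All 7 had a higher mean in ERD than in STD, against 50.6% of all regions and 95.8% of the other regions in the highest 10% by level. With normexp that direction held in 64.5% of those other regions, and values for these 7 with normexp are not given here. The longest of these windows (chr2:174122729-174126550, 24 probes) averaged 0.66 in ERD, 0.45 in BLD and 0.20 in STD. Of 3 windows at paternally methylated control regions 1 held probes (chr12:110766379-110766726, 4 probes). Its level of 0.50 was just above those of these 7 and inside the range of the 9 promoter windows, with means of 0.65 in ERD, 0.66 in BLD and 0.18 in STD.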

How the data were processed

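Genomic DNA of 10 left hemibrain samples was immunoprecipitated for 5-methylcytosine and hybridised beside its input to 2-colour Agilent arrays. The file headers name Agilent Feature Extraction 10.7.3.1 as the program, and the submitters' processing notes give version 9.0. Per the file headers, the authors' deposited processed intensity had its background subtracted and its dyes balanced by 1 linear factor per channel. The deposited files and the series value table also hold a log10 ratio of Cy5 over Cy3, and the 2 differed by at most 0.00498. Positions are on mm9, per the file headers.

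From the deposited intensity, a log2 ratio (processed Cy5 over Cy3) was taken for each probe, without outlier-flagged spots and with saturated ones, and the array's median over non-control probes was subtracted. Probes of a window were averaged. Outside the windows, probes with starts at most 500 bp apart were joined into regions of at least 3 probes. Diets were compared over all 10 arrays with limma 3.58.1 in R 4.3.3, with no covariate, Benjamini-Hochberg adjustment over all 13835 regions (or all 88737 probes) and a threshold of 0.05. The trend used the diets' fatty acid ratio on a log2 scale, and the level was the mean of the diet means against 0. The number of arrays limits the precision. The fits were also run on simulated data with independent noise in each region and array. Shifts that an array shares over many regions were not simulated. All windows were named, and within them the probes of highest and lowest level, the 3 probes of lowest p per comparison and the 3 regions of highest r with the mean of the windows. The windows, lists and tests were chosen with earlier results of these data known. The further control regions were placed from general knowledge and are not named.

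Alternatives were normexp background correction (offset 50), loess, quantile normalization, scaling to one interquartile range, the series value table, only probes well above background on all arrays, flagged spots kept, regions in place of windows, the median of the probes, array weights, the slide as a random block, only the arrays of the diets compared, single probes, a local baseline within 500 kb, and leaving out each array. The correction for probe length was chosen after seeing the data. Python 3.11.15 was used for tables and figures.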

Additional observations from a re-analysis of the deposited data

Results flagged for a closer look

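The same 4 ERD arrays were examined 10 times, at each of the 9 windows and for the median of the windows. In 2 of these 10, 1 array stood apart from the others. Chance flags about 1 in 20 independent groups, but these 10 share their arrays, so that rate cannot be set against the 2. In ERD, replicate 2 was the highest array at Nap1l5, with a log2 ratio of 1.18 against 0.46 for the next ERD array, a gap of 0.874 of the range of the group. At Peg3 it was the highest with 1.14 against 0.31 for the next ERD array, a gap of 0.927 of the range. Both values come from the same array, so they are not independent of each other.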

How the results depend on the processing

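The counts at an adjusted p under 0.05 were 0 of 9 windows for the 3 pairwise comparisons and the trend under every alternative that was run, with 0 of 63 for single probes. For the level, the count was 9 of 9 in most alternatives, 7 of 7 with only probes above background, 8 of 8 with the local baseline, 8 to 9 without 1 array, 8 with the probe length correction, and 43 of 63 for single probes. The share of all regions higher at that threshold was 20.6% in the main fit, 25.2% with the local baseline and 0% with normexp. Of all single probes 19.6% were, and the share was not counted in the other alternatives. The number of windows in the highest 10% by level was 6 to 9 without 1 array, with 6 without ERD replicate 2 or STD replicate 2. With normexp background correction 7 windows were in the highest 10%, 0 passed the adjusted threshold for the level, and Impact turned to -0.019. The direction of the differences between diets was less stable, and with normexp this held for wide differences as well as small ones.

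With normexp, the difference between ERD and STD turned to -0.15 at Nnat, -0.21 at Peg10, -0.034 at Grb10 and -0.0068 at Zrsr1, that between BLD and STD to -0.27 at Nnat, -0.28 at Peg10, -0.047 at Mest, -0.11 at Nap1l5, -0.14 at Peg3, -0.13 at Plagl1, -0.24 at Grb10, -0.018 at Zrsr1 and 0.026 at Impact, that between ERD and BLD to 0.12 at Nnat and 0.20 at Grb10, and the trend to -0.023 at Nnat, -0.036 at Peg10, -0.0017 at Grb10 and -0.00095 at Zrsr1. With all arrays scaled to one interquartile range, ERD minus STD turned to -0.19 at Grb10 and -0.019 at Impact, BLD minus STD to -0.11 at Grb10, ERD minus BLD to -0.017 at Peg10 and -0.00082 at Peg3, and the trend to -0.035 at Grb10. With quantile normalization, ERD minus STD was -0.18 at Grb10 and -0.047 at Impact, BLD minus STD -0.095 at Grb10, ERD minus BLD -0.018 at Peg3, and the trend -0.033 at Grb10 and -0.0048 at Impact. With loess, Grb10 turned to -0.026 for ERD minus STD and -0.0051 for the trend. With array weights, Grb10 turned to -0.063 for ERD minus STD and -0.013 for the trend, and ERD minus BLD to -0.074 at Peg10, -0.085 at Peg3 and -0.072 at Zrsr1. With only probes well above background, Grb10 turned to -0.045 for ERD minus STD, -0.14 for BLD minus STD, 0.096 for ERD minus BLD and -0.0058 for the trend, and BLD minus STD to -0.12 at Mest and -0.13 at Plagl1. With the probe length correction, Grb10 turned to -0.013, -0.021, 0.0081 and -0.0021 for ERD minus STD, BLD minus STD, ERD minus BLD and the trend. With the median of the probes, Grb10 turned to 0.053 for ERD minus BLD. The cause was not tested in any of these.

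Without 1 array, ERD minus STD ran between -0.14 and 0.17 at Grb10 and between -0.048 and 0.29 at Impact, BLD minus STD between -0.055 and 0.20 at Grb10, between -0.011 and 0.24 at Mest and between -0.25 and 0.0087 at Impact, ERD minus BLD between -0.19 and 0.11 at Grb10, between -0.082 and 0.17 at Peg10, between -0.17 and 0.14 at Peg3 and between -0.12 and 0.25 at Zrsr1, and the trend between -0.026 and 0.030 at Grb10 and between -0.0082 and 0.056 at Impact. The level of Zrsr1 ran between 0.22 and 0.35. Between ERD and STD, the count at an unadjusted p under 0.05 was 0 with normexp, 1 with the series value table, the slide as a random block or only probes above background, and 2 with loess, quantile normalization, scaling, array weights, the probe length correction or the arrays of these diets alone, against 4. Of all regions, 13.5% had such a p with scaling, against 15.7% in the main fit, and the values for the rest are not given here. Between BLD and STD it was 1 with normexp or the median of the probes, 2 with quantile normalization, 3 with the arrays of these diets alone and 4 with array weights, against 0. Between ERD and BLD the count was 1 with only probes above background, against 0. In the main fit 10.2% of all regions had such a p, and the share under this restriction is not given here. For the trend the count was 0 with normexp and 1 with quantile normalization, scaling, the series value table, only probes above background, array weights, the slide as a random block or the probe length correction, against 3. The share of all regions was 11.6% with scaling, against 15% in the main fit, and is not given here for the rest. Where only probes above background were used, Nnat and Peg10 gave no value. Signal over background limits the reading of 28 of the 63 probes, which were not well above background on at least 1 array. No paired analysis was possible because the labels give no shared replicate numbers.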
